A study of Mus musculus with 5 samples.

Results

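The insulin-like growth factor (IGF) family was examined as 10 genes, the ligands *Igf1* and *Igf2*, the receptors *Igf1r* and *Igf2r*, and the binding proteins *Igfbp2*, *Igfbp3*, *Igfbp4*, *Igfbp5*, *Igfbp6* and *Igfbp7*, chosen by symbol from the 27998 genes of the count matrices. Single-cell RNA was counted as UMIs (unique molecular identifiers, 1 per captured RNA molecule) in 5 libraries of mammary gland, 1 library per group. All mice were BALB/cj, were 30 weeks old and had been ovariectomized, so that every group, controls included, had no ovaries when treatment began 20 weeks after surgery and ran for 1 week. OVX received vehicle, DMSO, by injection. OVX_E2 received 17β-estradiol (E2) at 1 µg per animal each day, and OVX_E2_P4 the same with progesterone (P4) at 0.1 mg. OVX_E2_PBDE and OVX_E2_P4_PBDE had the injections of OVX_E2 and of OVX_E2_P4 and ate food with polybrominated diphenyl ethers (PBDEs), flame retardants, with doses in mg per kg of food of 7.1 for BDE-47, 0.9 for BDE-153 and 0.4 for BDE-100, while the other groups ate matched food with DMSO. The number of mice behind each library is not given in the sources used here, and the comparisons ask how the hormones, and PBDEs on top of them, alter the gland.

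IGF1 is a secreted growth factor that signals through the receptor tyrosine kinase IGF1R, is made in the liver and locally in many tissues, and in the mammary gland acts with estrogen and growth hormone in the growth of ducts. IGF2R takes IGF2 up and delivers it to lysosomes. The binding proteins carry IGFs outside cells and either hold them from the receptor or bring them to it, and proteases free the ligand again. IGFBP7 is a more distant relative that binds IGFs weakly.

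The files held 14344 barcodes, between 2233 and 3536 per library, with a median of 5345 to 8698 UMIs, and 14317 were kept. Clusters were named from marker genes as fibroblast-like (7251 cells), hormone-sensing luminal L-Hor-like (2538), alveolar luminal L-Alv-like (1084), basal-like (423), vascular (234, endothelial and pericyte markers together) and hematopoietic-like (516), and 1956 barcodes with markers of several types were set aside. A further 315 cells were named proliferating luminal, 0 in OVX and 36 to 145 in the other libraries, and their levels are not given below. Members took no part in the clustering. Each named type held its own markers, for example all 6 fibroblast markers at a summed 20281 to 31510.1 CPM in fibroblast-like cells. Fibroblast-like cells were 82.6% of the kept barcodes of OVX and 30.6% to 54.4% of those of the other libraries, so values are given within cell types. A level is in CPM (counts per 1000000), all UMIs that a gene had in a cell type scaled to the UMIs of every gene in those cells. Each interval is an exact 95% interval that covers counting error only, and with 1 library per group no difference was tested against the variation between animals or preparations. The comparisons share libraries and are not independent.

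*Igfbp3* and *Igfbp2* differed most between OVX and the libraries with E2, and the 250 bases before their starts are shown for that reason. They were taken from RefSeq on GRCm38.p6, in the direction of transcription. *Igfbp3* (ENSMUSG00000020427) lies on chromosome 11 at 7206086 to 7213923, minus strand, and its upstream bases at chr11:7213924-7214173. *Igfbp2* (ENSMUSG00000039323) lies on chromosome 1 at 72824503 to 72852474, plus strand, and its upstream bases, before the start of its first RefSeq entry, at chr1:72824230-72824479. Capitals mark TATATA in *Igfbp3* and GGGCGG, the GC box, in *Igfbp2*.
Igfbp3: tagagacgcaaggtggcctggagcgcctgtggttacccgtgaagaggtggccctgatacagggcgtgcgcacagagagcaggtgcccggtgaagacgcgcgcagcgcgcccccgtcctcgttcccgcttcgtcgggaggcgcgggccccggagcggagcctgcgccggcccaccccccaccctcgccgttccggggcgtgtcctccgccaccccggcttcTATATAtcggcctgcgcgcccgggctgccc
Igfbp2: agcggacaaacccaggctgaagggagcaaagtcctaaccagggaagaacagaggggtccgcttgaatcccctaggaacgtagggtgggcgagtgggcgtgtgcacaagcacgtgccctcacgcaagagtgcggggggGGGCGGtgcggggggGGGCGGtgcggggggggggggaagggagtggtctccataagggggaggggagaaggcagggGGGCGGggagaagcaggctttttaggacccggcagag
On both strands, TATATA had 1 match in *Igfbp3*, 30 bases before the start, and matched in 5.25% of all 32851 windows of the same length. GGGCGG had 3 matches in *Igfbp2* and matched in 32.7% of the windows. The full estrogen response element, GGTCA and TGACC with 3 free bases between them, matched neither and 0.0639% of all windows, and its half-site GGTCA, which lies within it, matched neither and 35.2% of all windows. The window of another RefSeq entry of *Igfbp2*, not printed, held 1 GGTCA.

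Of the ligands, *Igf1* (ENSMUSG00000020053, chromosome 10, 87858265 to 87937042, plus strand) was the measurable transcript and was highest in fibroblast-like cells. Its 9526 UMIs gave 219 CPM (211–226) in the fibroblast-like cells of OVX, 221 (209.6–232) in OVX_E2, 206 (194–218) in OVX_E2_P4, 145 (139–151) in OVX_E2_PBDE and 161 (149–174) in OVX_E2_P4_PBDE. The lowest of these lay above the highest value of any other cell type, 83.4 CPM in the hematopoietic-like cells of OVX. Those cells also held the fibroblast markers at 32.6% of their level in fibroblasts, and the part of such RNA in their values was not tested. Fibroblast-like cells carried 75.7% to 93.3% of the *Igf1* UMIs of a library. The levels of the other types, with means over libraries from 10.2 CPM in L-Hor-like to 31.6 CPM in vascular cells, overlapped between neighbours in the order. *Igf2* (ENSMUSG00000048583, chromosome 7, 142650766 to 142666816, minus strand), abundant in the embryo, had 31 UMIs in the 5 libraries together. It reached 0.563 CPM (0.243–1.11) at most in fibroblast-like cells, and 0 UMIs in the fibroblast-like cells of OVX_E2_P4_PBDE allow up to 0.752 CPM, the level of 3 counts. In vascular cells it had 1 or 2 UMIs in each of 4 libraries, too few to order the types.

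**Figure D1:**
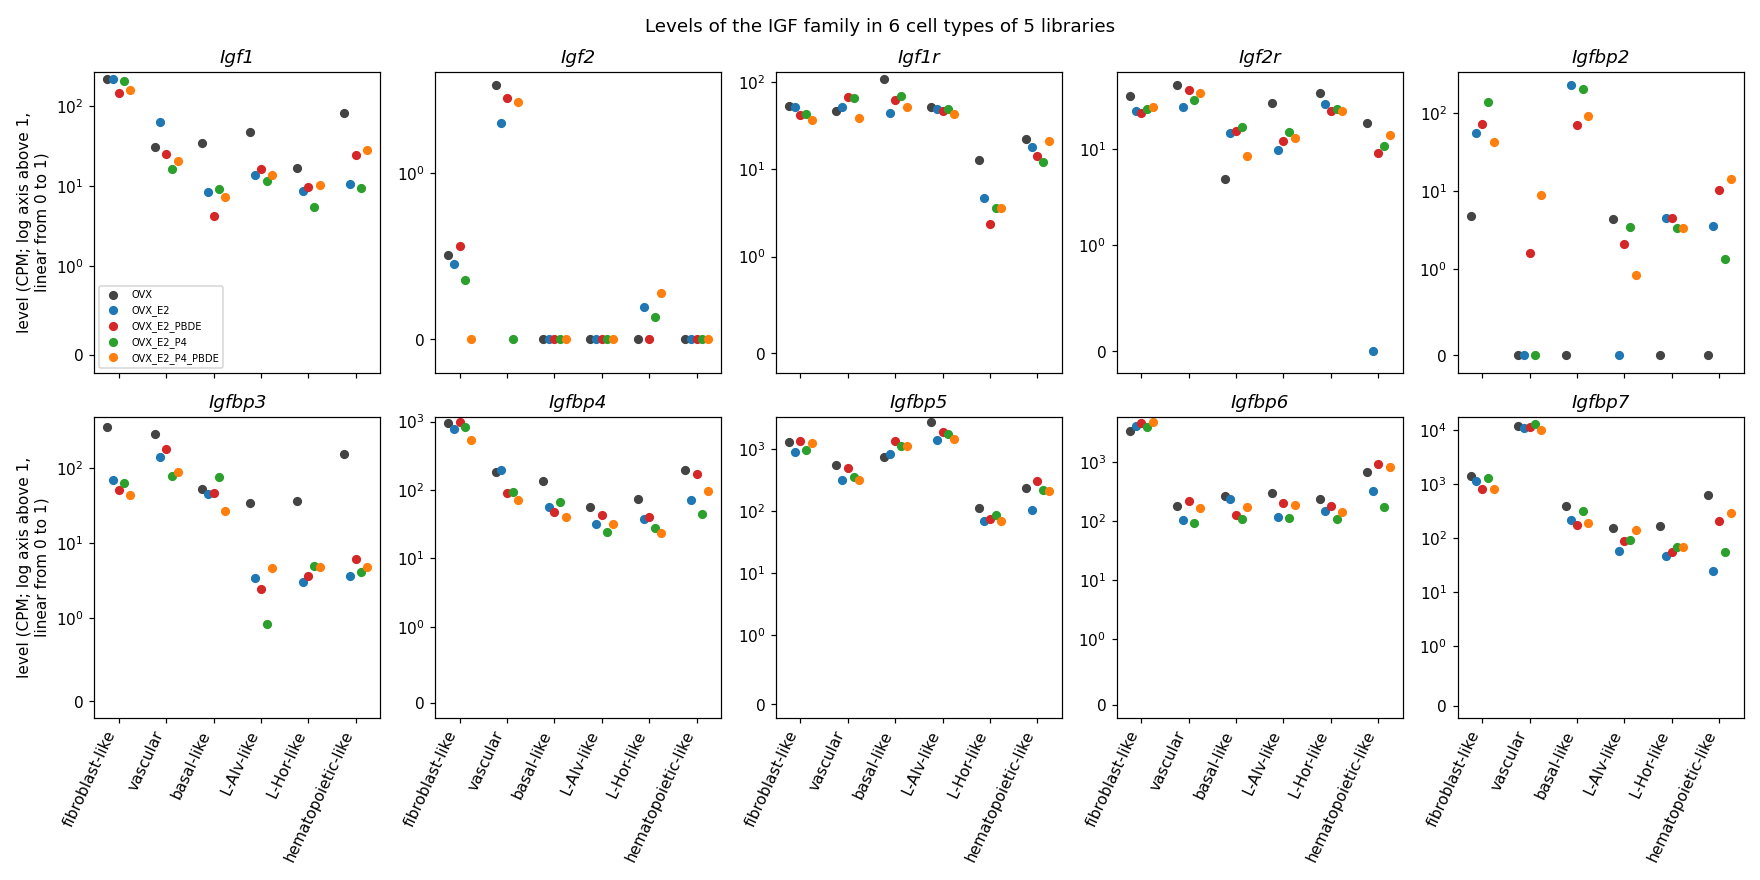
Levels of the 10 members (CPM, log axis above 1 and linear from 0 to 1) in 6 cell types, 1 point per library, coloured by group. *Igf1*, *Igfbp4* and *Igfbp6* sit highest in fibroblast-like cells in all 5 libraries and *Igfbp7* in vascular cells, while *Igf1r* sits lowest in L-Hor-like cells, at 2.39 to 12.9 CPM.

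The receptors divided the luminal lineages. *Igf1r* (ENSMUSG00000005533, chromosome 7, 67952827 to 68233668, plus strand) was found in L-Alv-like cells, at 51.6 CPM (26.7–90.2) in OVX, 48.8 (39.7–59.3) in OVX_E2, 49.8 (44.5–55.6) in OVX_E2_P4, 46.6 (39.0–55.1) in OVX_E2_PBDE and 42.8 (31.4–57.2) in OVX_E2_P4_PBDE. In L-Hor-like cells, the cells that hold the estrogen and progesterone receptors, the same libraries had 12.9 CPM (6.20–23.8), 4.74 (3.04–7.06), 3.64 (2.40–5.30), 2.39 (1.39–3.82) and 3.60 (1.91–6.15). The ranges of both luminal types did not overlap over the 5 libraries. *Igf1r* ranged from 44.3 to 108 CPM in basal-like cells, from 38.5 to 68.2 in vascular cells and from 36.9 to 52.6 in fibroblast-like cells, and these types and the L-Alv-like cells overlapped as neighbours in the order. Hematopoietic-like cells had 12.2 to 22.2 CPM, below every fibroblast-like value. *Igf2r* (ENSMUSG00000023830, chromosome 17, 12682406 to 12769664, minus strand) had the other order in the luminal cells, with 38.8 CPM (26.2–55.4) for L-Hor-like cells in OVX and 25.2 to 29.5 in the 4 libraries with E2, against 30.1 CPM (12.1–62.1) for L-Alv-like cells in OVX and 9.76 to 15.2 in the others. L-Hor-like cells were above L-Alv-like cells in each library, with overlapping intervals in OVX. In L-Hor-like cells *Igf2r* stood at 90.4% to 117% of its level in the fibroblast-like cells of the same library, far above the fibroblast markers, which stood at 3.70% to 9.18% there. Across types its levels overlapped between all neighbours in the order, from vascular cells (mean 37.5 CPM) down to hematopoietic-like cells (mean 10.7).

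The binding proteins differed in the cell types where their levels were highest. *Igfbp4* (ENSMUSG00000017493, chromosome 11, 99041244 to 99054392, plus strand), which holds IGF1 from its receptor until a protease cuts it, had 532 to 969.6 CPM in fibroblast-like cells and at most 197 CPM in the other types. *Igfbp6* (ENSMUSG00000023046, chromosome 15, 102144362 to 102149511, plus strand), which prefers IGF2, had 3373 to 4786 CPM in fibroblast-like cells and at most 925 elsewhere, in hematopoietic-like cells that also held fibroblast markers. *Igf1*, *Igfbp4* and *Igfbp6* were the 3 members whose mean level was highest in fibroblast-like cells. *Igfbp7* (ENSMUSG00000036256, chromosome 5, 77349240 to 77408041, minus strand) had 12161 CPM in the vascular cells of OVX, 11025 in OVX_E2, 12828 in OVX_E2_P4, 11193 in OVX_E2_PBDE and 10139 in OVX_E2_P4_PBDE. Its next level, in fibroblast-like cells, was 807 to 1393 CPM. Vascular cells were 27 to 72 per library and yet carried 13.2% to 41.8% of the *Igfbp7* UMIs.

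*Igfbp5* (ENSMUSG00000026185, chromosome 1, 72857932 to 72874884, minus strand) lies tail to tail with *Igfbp2*, 5457 bases away, and is known for its rise in the gland when milk production ends. It was the member with its highest level in L-Alv-like cells, 2716 CPM (2508–2936) in OVX, 1373 (1323–1425) in OVX_E2, 1745 (1713–1778) in OVX_E2_P4, 1898 (1848–1949) in OVX_E2_PBDE and 1444 (1373–1518) in OVX_E2_P4_PBDE. All of these lay above the levels of 904 to 1336 CPM over all fibroblast-like cells, and the OVX value came from 32 cells. Parts of the fibroblast-like cells were higher. The Pi16-led cluster of OVX_E2_P4_PBDE had 1555 CPM (1510–1601), and a Pi16-led cluster of OVX_E2_PBDE had 2717 (2671–2763), each above the L-Alv-like cells of its library. Basal-like cells had 729.7 to 1322 CPM and overlapped the fibroblast-like range. L-Hor-like cells, at 67.6 to 113 CPM, were lowest in each library. The luminal lineages thus differed for *Igfbp5* as they did for *Igf1r*.

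Fibroblast-like cells were not uniform. Their 16 clusters fell into a Pi16-high subset (as a share of all fibroblast-like cells, 50.4% of OVX, 64.4% of OVX_E2, 53.1% of OVX_E2_P4, 69.8% of OVX_E2_PBDE and 74.2% of OVX_E2_P4_PBDE) and a Pi16-low subset, *Pi16* being a marker of fibroblasts around vessels. *Igfbp7* had 2211 to 2687 CPM in the Pi16-low and 233 to 342 in the Pi16-high subset. *Igf1* was also higher in the Pi16-low subset in each library, at 251 to 321 against 102 to 182 CPM. *Igfbp5*, at 1183 to 2078 against 289 to 412 CPM, and *Igfbp6*, at 4449 to 5351 against 2049.8 to 3405 CPM, were higher in the Pi16-high subset. *Igfbp4* was higher there too, at 1427 CPM against 380.1 in OVX and at 587 against 383 in OVX_E2_P4_PBDE. The subsets come from clusters of the same cells, and these values are a description.

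**Figure D2:**
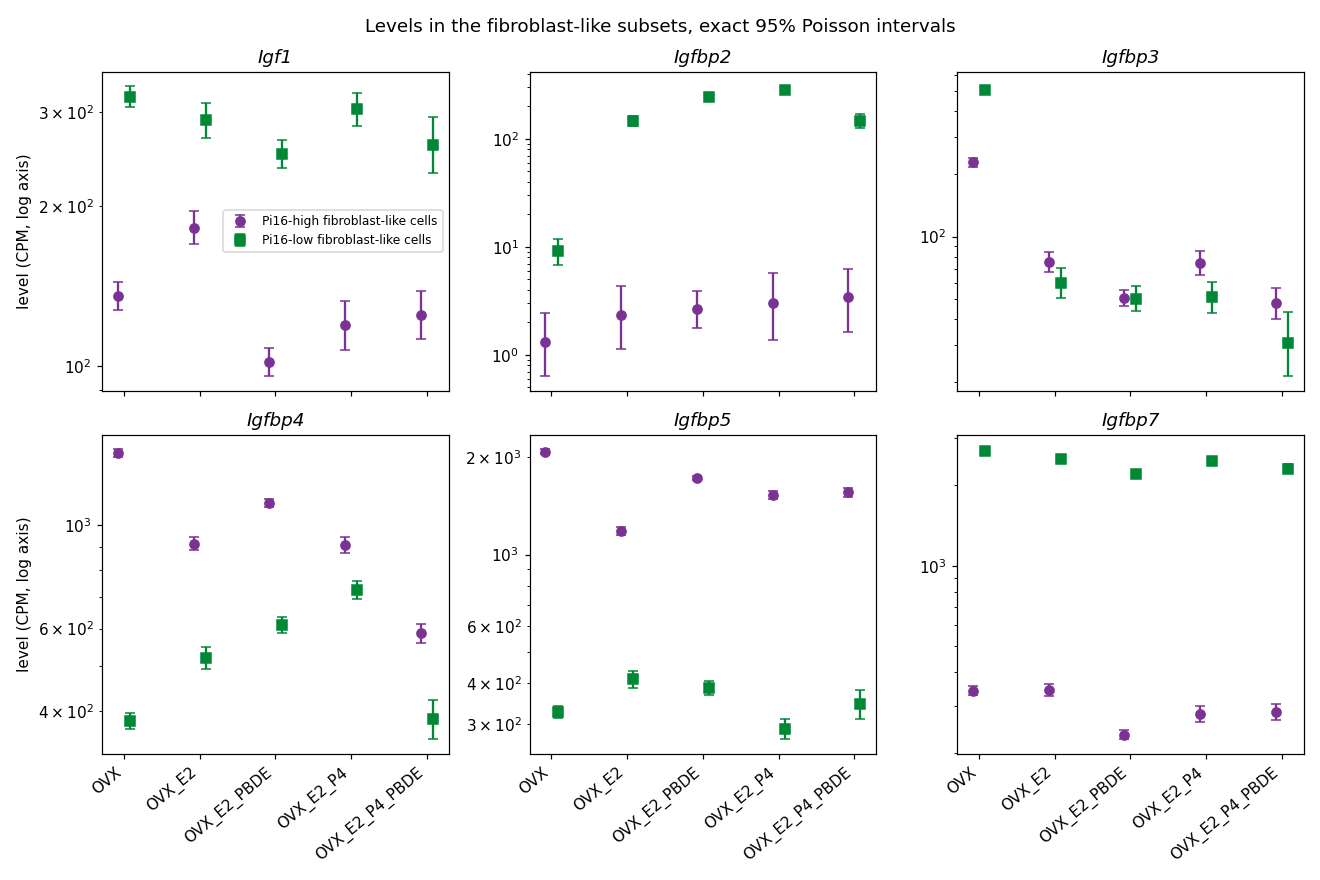
Levels of 6 members (CPM, log axis) in the Pi16-high (circles) and Pi16-low (squares) fibroblast-like cells of each library, with exact 95% Poisson intervals. *Igfbp3* is highest in OVX in both subsets (227 and 510.1 CPM), and *Igfbp2* in the Pi16-low subset is lowest in OVX (9.09 CPM).

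Among 4 marker lists for fibroblast clusters, the Spon1 list led 1 cluster in each of 4 libraries and none in OVX_E2_P4_PBDE. These clusters had the highest *Igf1* of their library, 499 CPM (434–569) in OVX, 410.3 (375–447) in OVX_E2, 371 (344–399) in OVX_E2_PBDE and 603 (548–661) in OVX_E2_P4. They also had the highest *Igfbp2*, at 126 CPM (95.2–164), 281 (253–312), 517 (485–550.4) and 936 (868–1009) in the same order, where no Pi16-leading cluster was above 3.42 CPM. In OVX_E2_P4_PBDE the 1 Pi16-low cluster, led by the Col15a1 list, had 147 CPM of *Igfbp2* (125–172). *Igfbp5* was lowest of all fibroblast-like clusters of a library in the Spon1-led ones, at 75.0 to 188 CPM. *Igfbp4* ran from 784 to 1423 CPM in Spon1-led clusters. In OVX_E2_P4 its 1423 CPM lay above the 907 of the Pi16-led cluster, while in OVX and OVX_E2 the Spon1-led cluster lay below the Pi16-led one. Spon1-led clusters were 3.98% (3.25–4.81) of all fibroblast-like cells in OVX, 18.4% (15.9–21.0) in OVX_E2, 12.9% (10.8–15.2) in OVX_E2_P4 and 14.6% (13.0–16.3) in OVX_E2_PBDE.

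**Figure D3:**
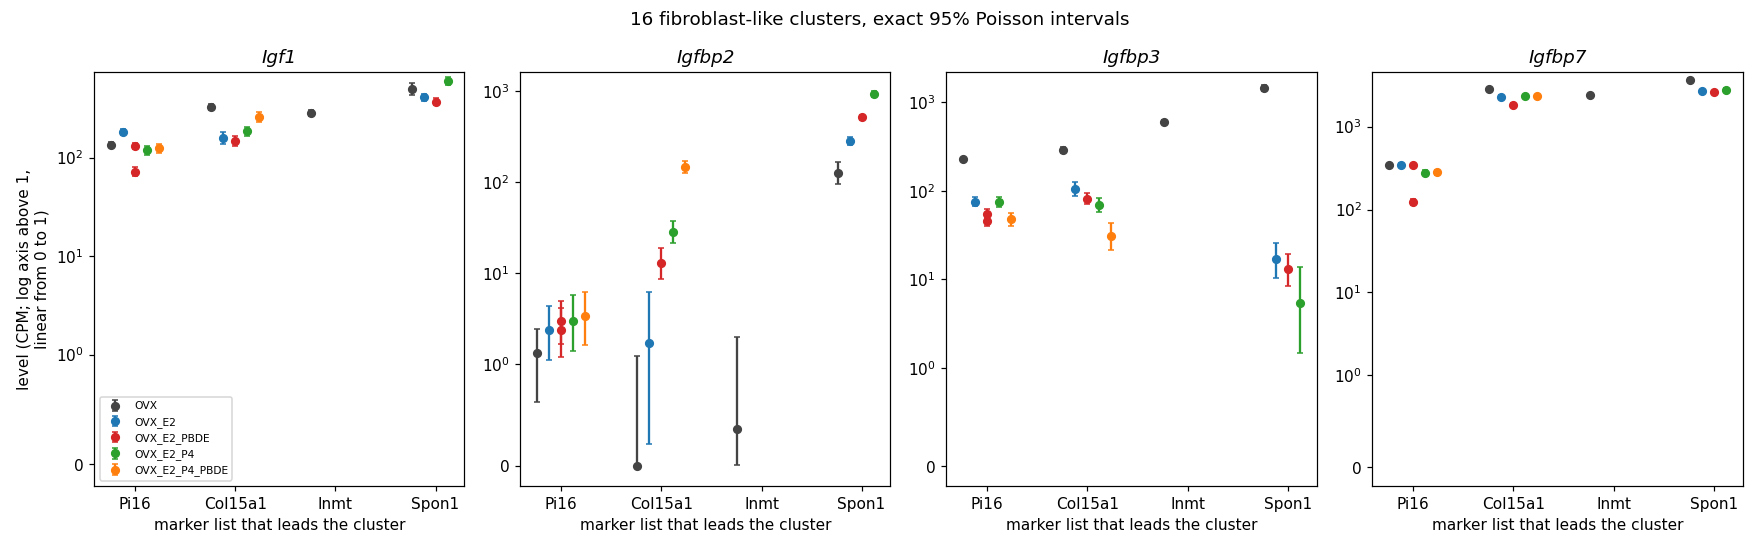
Levels of 4 members (CPM, log axis above 1 and linear from 0 to 1) in the 16 fibroblast-like clusters, placed by the marker list that leads the cluster and coloured by group, with exact 95% Poisson intervals. In Spon1-led clusters *Igfbp2* lies at 126 to 936 CPM, and *Igfbp3* lies at 1445 CPM in OVX and at 5.36 to 16.8 CPM in the libraries with E2.

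The comparison of OVX_E2 with OVX asks what E2 does in the ovariectomized gland. In fibroblast-like cells, 9 of the 10 members had at least 100 UMIs over both libraries, and 2 of them were past 1.5-fold in either direction, *Igfbp3* lower and *Igfbp2* higher. Of all genes with as many UMIs, 11.0% were past this limit. The median log2 ratio was −0.31 over the 9 members and 0.03 over all these genes. *Igfbp3*, the main carrier of IGFs in serum, which also restrains growth in many cells, had 354 CPM (344–364) in OVX, 70.0 (63.7–76.6) in OVX_E2, 63.9 (57.4–70.9) in OVX_E2_P4, 50.6 (47.0–54.4) in OVX_E2_PBDE and 43.4 (37.2–50.4) in OVX_E2_P4_PBDE. OVX was apart from all 4 libraries with E2, and the ratio of OVX_E2 to OVX was 0.198 (0.179–0.217).

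*Igfbp3* was lower in both fibroblast subsets. In the Pi16-high subset the ratio was 0.333 (0.295–0.375), and 3 of 8 members counted were past 1.5-fold, *Igfbp3*, *Igfbp4* (0.640, 0.617–0.664) and *Igfbp5* (0.569, 0.551–0.588), all lower, where 9.1% of all genes were past the limit. The Pi16-led clusters shared top genes, but *Mrgprg* and *Krtdap* were among them only in OVX, and *Sfrp4* and *Pcolce2* only in OVX_E2. The part of unlike mixtures in the Pi16-high ratios was not tested. In the Pi16-low subset the *Igfbp3* ratio was 0.117 (0.0986–0.139), and 3 of 9 members were past the limit, *Igfbp3* and *Igf2r* (0.613, 0.462–0.803) lower and *Igfbp2* higher, against 18.8% of all genes. The Pi16-low subset was made of different clusters in these libraries, with 627 Col15a1-led, 544 Inmt-led and 102 Spon1-led cells in OVX and 161 Col15a1-led and 172 Spon1-led cells in OVX_E2. In Col15a1-led clusters *Igfbp3* had 290.4 CPM in OVX and 106 in OVX_E2 (ratio 0.366, 0.301–0.443), and in Spon1-led clusters 1445 (1334–1563) and 16.8 (10.4–25.7). The Inmt-led cluster of OVX had 597 CPM (569–627), and no cluster of another library was led by that list. Such cells need not be absent from OVX_E2, whose Col15a1-led cluster had *Fgl2* and *Gdf10* of that list among its 10 top genes. Its mean over the Inmt list was 699 CPM, against 1328 in the Inmt-led and 744 in the Col15a1-led cluster of OVX. The Col15a1-led clusters may thus be unlike mixtures, and the part of this in their ratios was not tested. *Igfbp5* in these clusters had 347 CPM in OVX and 708 in OVX_E2 (ratio 2.04, 1.86–2.24), opposite in direction to the Pi16-high subset. *Igf1*, nearly level over all fibroblast-like cells, had a ratio of 0.486 (0.413–0.570) in Col15a1-led and 1.34 (1.22–1.48) in Pi16-led clusters. With cells reduced to 3000 UMIs by random draw, 39.0% (36.4–41.8) of the Pi16-low cells of OVX and 8.11% (5.41–11.6) of those of OVX_E2 had an *Igfbp3* UMI, against 47.1% and 15.0% without thinning, at median depths of 4533 and 6552 UMIs. The share in L-Hor-like cells, which gives the background, was 5.43% in OVX and 0.625% in OVX_E2, or 17.4% and 2.92% without thinning, at median depths of 6540 and 9530.5 UMIs.

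Genes induced by tissue dissociation moved with *Igfbp3* between OVX and OVX_E2 in Col15a1-led and Spon1-led clusters, but not in Pi16-led ones. The Inmt-led cluster of OVX, at 597 CPM of *Igfbp3*, had a sum of 3797 CPM for these genes. The 6 genes of the list, *Fos*, *Jun*, *Fosb*, *Egr1*, *Hspa1a* and *Hspa1b*, summed to 11150.1 CPM in the Col15a1-led and 14584 in the Spon1-led cluster of OVX, against 5446 and 5109.7 CPM in OVX_E2, but to 3524 against 4021 CPM in the Pi16-led clusters, where *Igfbp3* was also lower in OVX_E2. Among fibroblast-like cells at or below the median of this list over all 5 libraries, *Igfbp3* was 298 CPM (284–313) in the 1021 cells of OVX and 77.6 (67.9–88.3) in the 426 of OVX_E2. Without the Spon1-led clusters the levels were 318 and 82.3 CPM. The part of dissociation stress in these *Igfbp3* values was not tested. In vascular cells *Igfbp3* had 288 CPM (226–362) in OVX, 142 (109.5–180.1) in OVX_E2, 77.1 (42.2–129) in OVX_E2_P4, 178 (146–214) in OVX_E2_PBDE and 88.9 (60.0–127) in OVX_E2_P4_PBDE, with OVX again highest. Basal-like cells, at 51.8 CPM (32.0–79.1) in OVX and 26.3 to 75.0 in the other libraries, showed no such order.

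*Igfbp2*, whose protein binds both ligands, had 4.80 CPM (3.72–6.11) in the fibroblast-like cells of OVX, 54.6 (49.1–60.5) in OVX_E2, 136 (126–146) in OVX_E2_P4, 72.9 (68.5–77.5) in OVX_E2_PBDE and 41.9 (35.8–48.7) in OVX_E2_P4_PBDE. OVX was lowest, and the ratio of OVX_E2 to OVX was 11.4 (8.72–15.0). The difference was in the Pi16-low subset, at 9.09 CPM against 147 (ratio 16.2, 12.2–21.8), while the Pi16-high subset had 1.32 CPM (0.633–2.43) and 2.36 (1.13–4.34). Within Spon1-led clusters the ratio was 2.23 (1.67–3.01), and these clusters were also a larger share of the fibroblast-like cells of OVX_E2. Their mean over the Spon1 list was 602 CPM in OVX and 316 in OVX_E2, and the part of this in the ratio was not tested. Without Spon1-led clusters, fibroblast-like cells had 0.827 CPM (0.413–1.48) in OVX and 2.22 (1.15–3.88) in OVX_E2. Among the cells low in the stress genes the levels were 3.34 (2.01–5.22) and 16.9 CPM (12.5–22.2), a ratio of 5.05 from under 100 UMIs.

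Basal-like cells, the contractile outer layer of the ducts, also had their lowest *Igfbp2* in OVX. The 60 cells of OVX had 0 *Igfbp2* UMIs of 405651, which allows up to 7.40 CPM at 3 counts. OVX_E2 had 225 CPM (196–258), OVX_E2_PBDE 69.4 (56.4–84.6), OVX_E2_P4 201 (179–225) and OVX_E2_P4_PBDE 91.6 (73.4–113). OVX_E2 was at least 30.5-fold higher than OVX, counted against 3 UMIs. Reduced to 3000 UMIs, 0 of 60 cells of OVX had a UMI of *Igfbp2* and 32.4% (21.8–44.5) of the 71 cells of OVX_E2 did, or 47.9% without thinning. L-Hor-like cells, which give the background, had shares of 0% and 1.04%. The median depths of the basal-like cells were 5587.5 and 11465 UMIs. In basal-like cells 3 of 5 members counted were past 1.5-fold between OVX_E2 and OVX, *Igfbp2* higher and *Igfbp4* (0.420, 0.283–0.622) and *Igfbp7* (0.558, 0.451–0.691) lower. In these small samples 39.9% of all genes were past the limit. The fibroblast markers summed to 2731 CPM in the basal-like cells of OVX and 1321 in those of OVX_E2, and their part in the *Igfbp4* and *Igfbp7* values was not tested. In the same order the basal markers summed to 14357 and 10642.8 CPM, the L-Hor markers to 61.6 and 335 and the L-Alv markers to 365 and 248. The mean over the markers of proliferating cells was 0 and 26.2 CPM. The part of these differences in the *Igfbp2* values was not tested. In OVX_E2 the basal-like level of *Igfbp2* was 413% of its fibroblast-like level.

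In L-Hor-like cells, 4 of 5 members counted were past 1.5-fold between OVX_E2 and OVX, *Igfbp4*, *Igfbp5*, *Igfbp6* and *Igfbp7*, all lower, where 25.3% of all genes were past the limit. *Igfbp7* had the lowest ratio, 0.280 (0.225–0.351), with 166 CPM in OVX and 46.4 in OVX_E2. The median log2 ratio of all genes was −0.21 here, and after division by that median *Igfbp5* (0.693) and *Igfbp6* (0.740) were within the limit. Of the genes past the limit 22.8% were higher in OVX_E2, and 53.4% after that division. The markers of fibroblasts moved with them. The fibroblast list stood in L-Hor-like cells at 9.18% of its fibroblast level in OVX, 5.50% in OVX_E2, 3.70% in OVX_E2_P4, 7.05% in OVX_E2_PBDE and 5.99% in OVX_E2_P4_PBDE. *Igfbp4* and *Igfbp6* stood at 3.33% to 7.57% and at 2.79% to 6.98% of their fibroblast levels, and *Igf1* at 2.69% to 7.70%. In all 5 libraries these 3 and *Igfbp7* were at or below the highest fibroblast marker, so no expression in L-Hor-like cells is read from them. *Igfbp5* was above all fibroblast markers in 1 library. With the barcodes of the highest 20% of doublet scores (Scrublet) left out, the ratios of 3 members were further from 1, at 0.347 for *Igfbp4*, 0.381 for *Igfbp5* and 0.394 for *Igfbp6*, and with the libraries clustered together *Igfbp6* was at 0.358.

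In L-Alv-like cells, 3 of 4 members counted were past the limit between OVX_E2 and OVX, *Igfbp5* (0.506, 0.464–0.552), *Igfbp6* (0.390, 0.298–0.517) and *Igfbp7* (0.382, 0.260–0.575), all lower, against 25.8% of all genes. The markers of these cells differed as well, with their own list at a summed 15170.2 CPM in OVX and 7481 in OVX_E2, the fibroblast list at 1851 and 1045 CPM and the L-Hor list at 129 and 482 CPM, and the part of other cells' RNA in the ratios was not tested. *Igfbp6* lay within or below the range of the fibroblast markers in L-Alv-like cells in all 5 libraries. *Igfbp5* stood at 117% to 210.1% of its fibroblast level, far above the markers, and *Igfbp7*, at 5.11% to 16.8%, was above all of them in each library. Vascular cells had the highest *Igfbp7*, and the endothelial markers summed to between 0 and 18.6 CPM in L-Alv-like cells. The part of vascular RNA in the *Igfbp7* values was not tested.

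**Figure D4:**
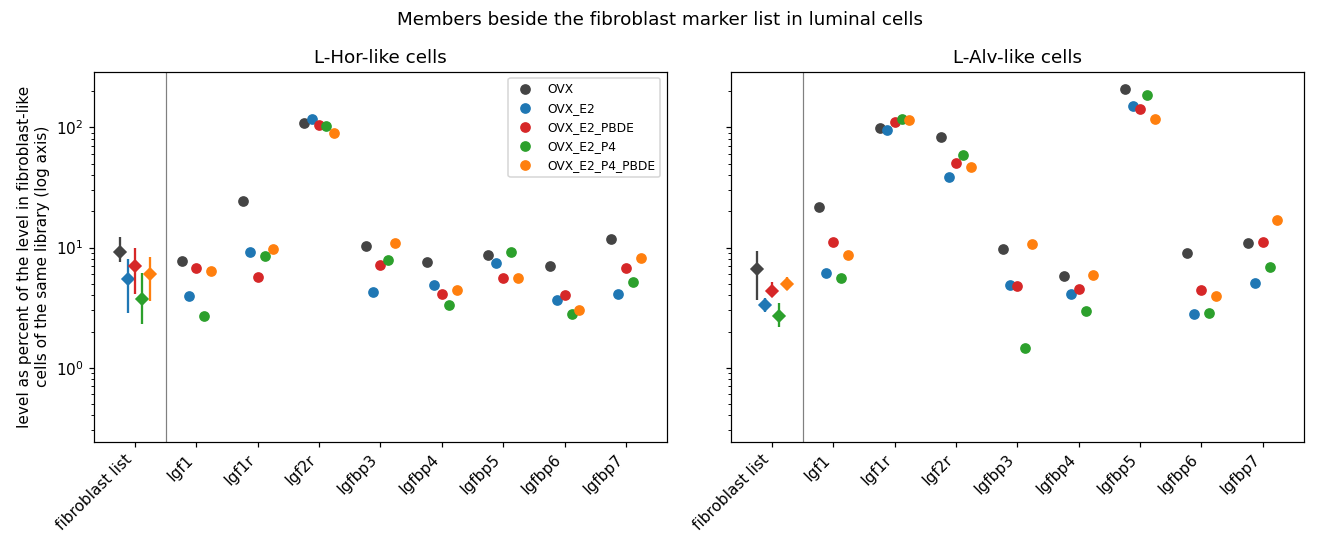
Level of 8 members in both luminal types as a percent of the level in fibroblast-like cells of the same library (log axis), beside the fibroblast marker list (diamond, summed list; line, lowest to highest marker). In L-Hor-like cells *Igf2r* alone stays near 100% (90.4% to 117%). In L-Alv-like cells *Igf1r* lies near 100% (94.3% to 117%) and *Igfbp5* above it (117% to 210.1%).

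The comparison of OVX_E2_P4 with OVX_E2 asks what P4 adds to E2. In fibroblast-like cells 1 of 9 members counted was past 1.5-fold, where 6.29% of all genes were. Of those genes 41.9% were higher with P4, and 61.8% after division by the median ratio. The member was *Igfbp2*, at 136 CPM in OVX_E2_P4 and 54.6 in OVX_E2 (ratio 2.49, 2.19–2.83). The Spon1-led clusters had 936 CPM against 281 (ratio 3.33, 2.92–3.80), while these clusters were a smaller share of the fibroblast-like cells with P4. Their mean over the Spon1 list was 746 CPM in OVX_E2_P4 and 316 in OVX_E2. They may thus be unlike mixtures, and the part of this in their ratios was not tested. Without the Spon1-led clusters the ratio was 5.83, from under 100 UMIs, and among cells low in the stress genes it was 7.10. *Igf1* in the same clusters had a ratio of 1.47 (1.29–1.67), and in the Pi16-high subset one of 0.655 (0.576–0.744). Over all fibroblast-like cells *Igfbp3* differed by less than counting error (0.913, 0.793–1.05), but in Col15a1-led clusters it was at 0.653 (0.507–0.842). *Igfbp4* was at 1.94 (1.69–2.23) in Col15a1-led and 1.81 (1.66–1.98) in Spon1-led clusters, and *Igfbp5* at 0.527 and 0.548. *Igfbp6* was at 0.527 (0.487–0.570) in Spon1-led clusters. Pi16-led clusters had these genes within the limit, at 0.993, 1.29 and 1.01. The part of unlike mixtures in these ratios was not tested. In L-Hor-like cells 0 of 5 members were past the limit, against 6.93% of all genes, of which 43.6% were higher and 64.3% after division by the median ratio.

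The comparisons with PBDEs ask what these compounds change under E2 and under E2 with P4. OVX_E2_PBDE against OVX_E2 had 1 of 9 members past 1.5-fold in fibroblast-like cells, *Igf1* at 145 against 221 CPM (ratio 0.656, 0.613–0.702), where 6.3% of all genes were past the limit. The median log2 ratio of all genes was −0.16, and after division by that median *Igf1* was at 0.732, within the limit. After that division 47.7% of the genes past the limit were higher with PBDEs, against 14.0% before it. *Igf1* was at 102 against 182 CPM in the Pi16-high subset (ratio 0.559, 0.509–0.615), at 251 against 289 CPM in the Pi16-low subset, and in Spon1-led clusters the ratio was 0.904 (0.805–1.01). The Pi16-high subset of OVX_E2_PBDE held a cluster with 72.1 CPM of *Igf1* (64.8–79.9) and another with 131 (121–141). *Igfbp5* had a ratio of 1.48 (1.44–1.52), just inside the limit, and was past it after division by the median ratio, at 1.65, and among cells low in the stress genes, at 1.53. In L-Hor-like cells 0 of 6 members were past the limit, against 7.17% of all genes, of which 17.1% were higher and 50.6% after division by the median ratio. *Igfbp2* in basal-like cells was at 69.4 against 225 CPM (ratio 0.308, 0.240–0.393). The basal markers summed to 6839 CPM in these cells with PBDEs and 10642.8 without, the L-Hor markers to 972 against 335 and the L-Alv markers to 1582 against 248, and their part in the *Igfbp2* ratio was not tested.

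OVX_E2_P4_PBDE against OVX_E2_P4 had 3 of 9 members past 1.5-fold in fibroblast-like cells, all lower, where 8.9% of all genes were past the limit. Of those genes 21.3% were higher with PBDEs, and 35.3% after division by the median ratio. *Igfbp2* had 41.9 CPM against 136 (ratio 0.308, 0.259–0.365), *Igfbp4* 532 against 822 (0.648, 0.615–0.682) and *Igfbp7* 826 against 1306 (0.632, 0.607–0.659). After division by the median ratio *Igfbp4* (0.684) and *Igfbp7* (0.668) were within the limit. The Pi16-high subset, low in *Igfbp7*, was 74.2% of the fibroblast-like cells with PBDEs and 53.1% without, and with each subset at its mean share over the 5 libraries the *Igfbp7* ratio was 0.950. Within the subsets *Igfbp7* had ratios of 1.01 (0.919–1.12) in Pi16-high and 0.938 (0.895–0.983) in Pi16-low cells. *Igfbp4* was lower in both, at 0.647 (0.608–0.687) and 0.528 (0.474–0.588), and *Igfbp2* was at 0.515 (0.430–0.612) in the Pi16-low subset. *Igfbp3*, within the limit over all fibroblast-like cells, was past it in both subsets. It was at 0.639 (0.513–0.793) in Pi16-high cells, and at 30.9 CPM with PBDEs against 51.3 without in Pi16-low cells. The Pi16-low value of *Igfbp4* includes the Spon1-led cluster of OVX_E2_P4, at 1423 CPM. In Col15a1-led clusters its ratio was 0.852 (0.755–0.960). Over all fibroblast-like cells without Spon1-led clusters it was 0.730, within the limit. The direction for *Igfbp2* turned on the Spon1-led cluster, which OVX_E2_P4 had and OVX_E2_P4_PBDE did not. Without it the ratio was 3.23, and in Col15a1-led clusters *Igfbp2* had 147 CPM with PBDEs and 28.6 without (ratio 5.14, 3.75–7.14). These are not like for like. The Col15a1-led cluster with PBDEs was the whole Pi16-low subset, 228 cells. In OVX_E2_P4, 122 cells of that subset were a Spon1-led cluster of their own, so a whole subset is set against a part. The same holds for the *Igfbp4* values without Spon1-led cells. No rise of *Igfbp2* with PBDEs within a matched cell type is read from them. *Igf1* had a ratio of 0.783 (0.710–0.863) over all fibroblast-like cells. It was at 1.05 (0.901–1.21) in Pi16-led clusters and at 1.41 (1.20–1.65) in the Col15a1-led clusters, which are not like for like. The Spon1-led cluster of OVX_E2_P4 had 603 CPM of *Igf1*, and the Pi16-high subset, lower in *Igf1*, was a larger share with PBDEs. The part of these unlike mixtures in the *Igf1* ratios was not tested. In L-Hor-like cells 0 of 5 members were past the limit, against 10.2% of all genes, of which 19.5% were higher and 39.9% after division by the median ratio. *Igfbp2* in basal-like cells was at 91.6 against 201 CPM (ratio 0.455, 0.355–0.580). There too the basal markers were lower with PBDEs, at 5563 against 10080.3 CPM, and the L-Hor markers (1202 against 394) and L-Alv markers (1721 against 452) higher, and their part in the ratio was not tested. With 1 library per group, PBDEs and any difference in the preparation of these libraries cannot be told apart.

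**Figure D5:**
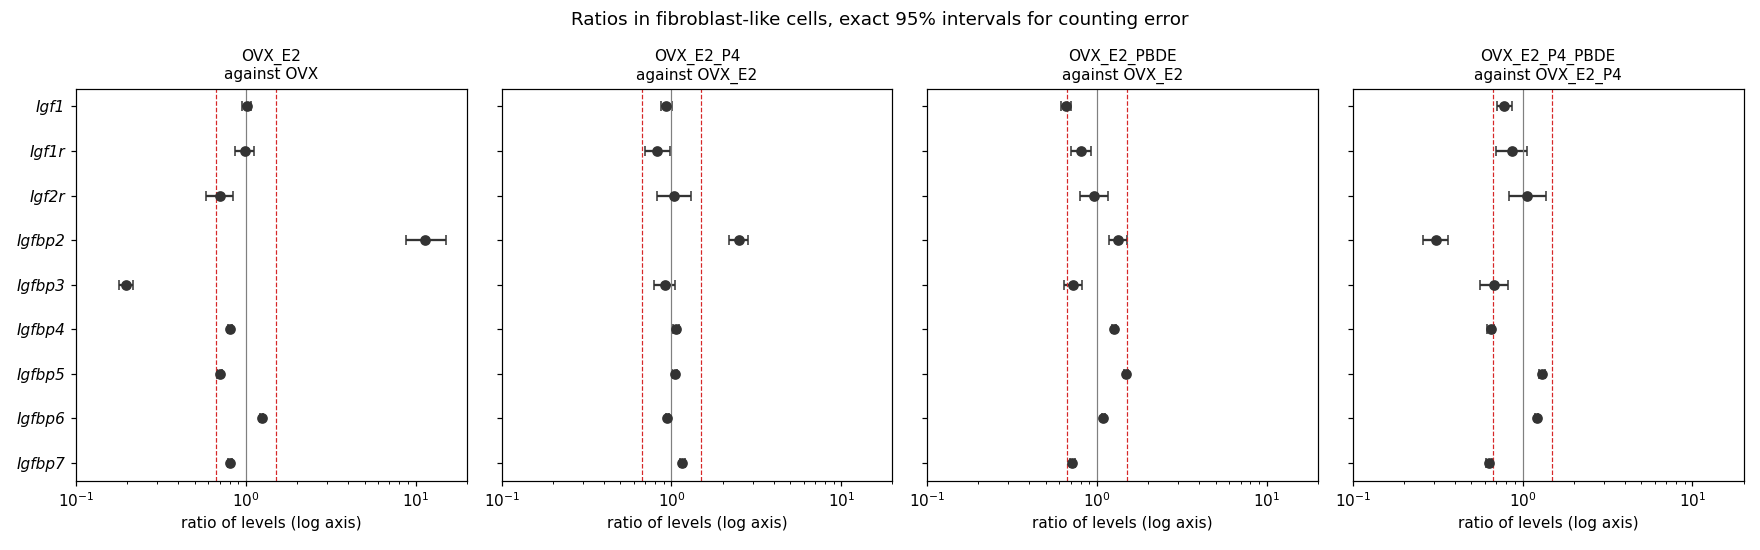
Ratios of levels in fibroblast-like cells for 9 members in the 4 comparisons (log axis), with exact 95% intervals for counting error, a grey line at 1 and dashed lines at 1.5-fold in either direction. *Igfbp3* (0.198) and *Igfbp2* (11.4) stand farthest from 1, both in OVX_E2 against OVX.

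A list of 34 other genes of the pathway, chosen by role, was read the same way in fibroblast-like cells. Between OVX_E2 and OVX, 4 of 26 genes counted were past 1.5-fold higher and 1 lower, where 6.14% of all genes were past it higher and 4.82% lower. The 3 largest ratios were those of *H19*, the non-coding neighbour of *Igf2* (13.2 against 4.15 CPM, ratio 3.19, 2.26–4.53), *Adam12*, a metalloprotease that can cut binding proteins (2.52, 2.04–3.11), and *Htra1*, a secreted serine protease (918 against 487 CPM, 1.89, 1.82–1.95). The 3 smallest were those of *Igf2bp3*, which binds *Igf2* RNA (0.581, 0.468–0.715), *Igf2bp2* (0.680, 0.487–0.936) and *Htra3*, a relative of *Htra1* (0.764, 0.741–0.788). With P4 added to E2, 1 of 25 genes counted was higher and 0 lower, against 6.29% of all genes past the limit in either direction. It was *H19* at 21.6 against 13.2 CPM (1.63, 1.23–2.17). Next to it were *Adam12* (1.42) and the kinase *Akt1* (1.30), and the smallest ratios were those of *Htra1* (0.735), *Foxo1*, a transcription factor that insulin signalling keeps from the nucleus (0.756), and *Akt2* (0.773), all within the limit.

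With PBDEs under E2, 0 of 26 pathway genes were higher and 2 lower, against 6.3% of all genes past the limit in either direction. The lower ones were *H19* (5.07 against 13.2 CPM, 0.383, 0.276–0.529) and *Stc2*, an inhibitor of the protease PAPP-A (0.639, 0.528–0.774), followed by *Adam12* (0.689). The ratios of *Jak2* (1.28) and *Akt1* (1.05), among the largest, were within the limit. With PBDEs under E2 and P4, 0 of 22 were higher and 2 lower, against 8.9% of all genes in either direction. These were *H19* (9.53 against 21.6 CPM, 0.441, 0.298–0.640) and *Adam12* (0.542, 0.422–0.692), followed by *Stat5b* (0.671), and the ratios of *Foxo1* (1.24) and the insulin receptor gene *Insr* (1.20), among the largest, were within it. *H19* thus had 4.15 CPM in OVX, 13.2 in OVX_E2, 21.6 in OVX_E2_P4, 5.07 in OVX_E2_PBDE and 9.53 in OVX_E2_P4_PBDE, higher in the libraries with E2 alone or with P4 than in those that also had PBDEs. In L-Hor-like cells, of the 16, 21, 20 and 20 genes counted in the 4 comparisons in the order above, 1, 2, 0 and 0 were higher and 5, 2, 4 and 3 lower, where 25.3%, 6.93%, 7.17% and 10.2% of all genes were past the limit in either direction.

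Over 44 profiles of a cell type or fibroblast subset in a library, which share libraries, the 3 genes most like each member in log2(CPM + 1) were found among 8571 others with at least 1000 UMIs. For *Igf1* they were *Loxl2* (Pearson's r = 0.955), *Col1a2* and *Ccdc80*, and for *Igfbp6* *Mfap5* (r = 0.992), *Dpt* and *Timp2*. *Igfbp4* was most like *Fstl1* (r = 0.980), *Adamts5* and *Htra1*, and *Igfbp7* most like *Hspg2* (r = 0.962), *Sparcl1* and *Pth1r*. *Igfbp3* was most like *Dnajb1* (r = 0.902), *Junb* and *Adamts1*, the first pair being genes that stress induces. *Igfbp2* had the weakest likeness, to *Col7a1* (r = 0.797), *2610524H06Rik* and *Mdk*. *Igfbp5* was most like *Lurap1l* (r = 0.861), *Fosl1* and *Rhoq*, *Igf1r* most like *Ttc28* (r = 0.911), *Fads1* and *Phxr4*, and *Igf2r* most like *Rab13* (r = 0.878), *Syap1* and *Srr*.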

How the data were processed

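The authors aligned reads and counted UMIs with Cell Ranger 2.0.0 on mm10, per the labels, and deposited filtered matrices of counts, whole numbers without normalization. Whether antisense reads were left out is not given in the sources used here; antisense genes overlap *Igf1*, *Igf2*, *Igf2r* and *Igfbp7*. Totals were 19982067 to 42012988 UMIs per library. Of the barcode sequences, 79 occurred in 2 libraries and 1 in 3. Kept barcodes had at least 500 genes, 1000 UMIs and at most 10% mitochondrial UMIs. Each library was clustered alone in Seurat 5.3.0 (2000 variable genes, 10 components, resolution 0.3 for OVX and 0.5 for the others) without the members and pathway genes. A type was assigned from its marker list at 25% or more of the highest cluster; these limits were set after clusters were seen. Clusters with both luminal lists, possible multiplets, were set aside, and Scrublet served as an alternative. Intervals were Poisson for sums, Clopper-Pearson for shares and conditional binomial for ratios (scipy). The ratio procedure was run on simulated Poisson counts, the model its intervals assume. This checked the calculation and not variation between libraries. A ratio counted from 100 UMIs over both libraries, and 1.5-fold was the limit. Genes were named by rule: all members, and the 3 largest and 3 smallest ratios of the pathway list. Some genes that this rule names are not reported here. Members and lists were chosen with earlier results of these data known. Positions are from GENCODE M21 (GRCm38), and all 10 members matched the RefSeq promoter table.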

Additional observations from a re-analysis of the deposited data

Results flagged for a closer look

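Ratios of 5 pairs lay past 1.5-fold in opposite directions under like comparisons, each from 1 library per group, and none of the differences was tested. *Igfbp2* in Pi16-low fibroblast-like cells was at 1.67 with PBDEs under E2 and at 0.515 with PBDEs under E2 and P4. *Igfbp6* in basal-like cells was at 0.546 with PBDEs under E2 and at 1.59 under E2 and P4. Under E2, *Igfbp6* was at 1.70 with PBDEs in L-Alv-like and at 0.546 in basal-like cells, and in both types its level lay within or below the range of the fibroblast markers in all 5 libraries. *Igfbp7* under E2 and P4 was at 0.632 with PBDEs in fibroblast-like cells, at 1.53 in L-Alv-like cells and at 0.610 in basal-like cells. With each fibroblast subset at its mean share over the 5 libraries, the fibroblast-like ratio was 0.950. In L-Alv-like cells the endothelial markers summed to 18.6 CPM in OVX_E2_P4_PBDE and 4.50 in OVX_E2_P4. The part of vascular RNA in the L-Alv-like ratio was not tested.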

How the results depend on the processing

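No paired analysis was possible because each group had 1 library and no test was made. The 3 members highest in fibroblast-like cells were 3 under every alternative. In fibroblast-like cells, the members past 1.5-fold were 4 in place of 2 (OVX_E2 against OVX) with the highest 20% of Scrublet scores left out, 0 in place of 1 (PBDEs under E2) at a limit of 2-fold, and 1 in place of 3 (PBDEs under E2 and P4) both at 2-fold and with median ratio scaling. Of alternatives chosen after seeing the data, cells low in stress genes gave 2 in place of 1 with PBDEs under E2. These were *Igfbp5* and *Igfbp7* (549 against 905 CPM), while *Igf1*, at 0.669, was within the limit. For OVX_E2 against OVX, *Igfbp5* (971 against 1648 CPM) was past the limit in these cells, and *Igfbp2* no longer had 100 UMIs. Leaving out Spon1-led clusters gave 0 in place of 1 for P4, where *Igfbp2*, at 5.83, no longer had 100 UMIs. Leaving them out changed other calls too. With PBDEs under E2 and P4, *Igfbp4* (0.730) and *Igfbp7* (0.767) were within the limit, and *Igfbp3*, at 43.4 against 72.9 CPM, was past it. For OVX_E2 against OVX, *Igfbp2* had 12 and 11 UMIs, too few to count, and *Igfbp7*, at 762 against 1319 CPM, was past the limit. In L-Hor-like cells, OVX_E2 against OVX gave 2 with median ratio scaling, 1 at 2-fold and 9 with no minimum of UMIs in place of 4. The other 3 comparisons, at 0, gave 2, 1 and 1 (P4, PBDEs, PBDEs with P4) with libraries merged, 1, 1 and 2 with the Scrublet setting and 2 each with no minimum, and P4 gave 1 with median ratio scaling and with totals without mitochondrial and ribosomal protein genes. The ratio of *Igfbp2* for PBDEs under E2 and P4, 0.308, turned to 3.23 without Spon1-led clusters, since OVX_E2_P4_PBDE had none and lost no cells. That of *Igf1* for PBDEs under E2, 0.656, was within the limit under 6 alternatives, at 0.669 to 0.732. The cause of the other changes was not tested. Levels under the floor of 3 counts are not ordered.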
